A study of Mus musculus with 19 samples.

Results

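The accessible regions described here are 660 of the 90154 ATAC-seq peaks of differentiating mouse astrocytes, 0.732% of all. They were chosen on measured values: the mean at 72 h with tumor necrosis factor (TNF) was at most 0.6 times the untreated 72 h mean, the mean at 24 h with TNF was at least 0.85 times the untreated 24 h mean, and the untreated 72 h mean was at least 50 normalised reads. Their lower value at 72 h and their kept value at 24 h are therefore set by the rule and are given below as a description. The comparison that the rule did not use, and that was tested, is that of the cells after 1 week of differentiation with the cells before it.

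All cells came from neural stem cells of the ventricular zone of wild type C57BL/6J mice at embryonic day 14, grown with EGF as floating neurospheres (NSPs). NSPs were placed in serum on coated plates to become astrocytes, without or with TNF at 50 ng/ml. The 19 libraries fell into the groups NSP, 24 h, 24 h TNF, 72 h and 72 h TNF, with 3 libraries each, and 1 week, untreated, with 4. No TNF-treated cells at 1 week were analysed here, and nothing in the labels says whether libraries of a group came from separate cultures, so the p-values measure the spread between libraries only.

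ATAC-seq reads open chromatin, because a transposase inserts adapters where DNA is not covered by nucleosomes. Peaks at gene starts mark promoters and tend to be open in many cell types. Peaks far from gene starts are often enhancers, whose opening follows the transcription factors of a cell type and stage. During astrocyte differentiation, factors such as SOX9 and the NFI family act with STAT3, BMP and Notch signals to open glial enhancers and to close those of the progenitor. TNF is a cytokine of inflamed tissue that acts on astrocytes mainly through NF-kB.

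Of the 3967 peaks that met both 72 h conditions, the 660 made up 16.6%. Another 1338 (33.7%) also had a TNF ratio of at most 0.6 at 24 h and are called closed at both times below. The remaining 1969 (49.6%) had a 24 h ratio between both bounds. The median 24 h ratio of all 3967 was 0.665, so that the 660 are the upper end of 1 continuous spread of 24 h ratios and not a separate cloud. Peaks just inside and just outside the bounds of the 24 h ratio and the 72 h mean were nearly alike. For the 72 h ratio, the peak just outside, nearest Slco3a1, had 0.600131. For the 24 h ratio these were a peak in Tab2 with 0.850178 and one nearest Lef1 with 0.84992. For the 72 h mean they were a peak nearest Clrn1 with 50.1 and one nearest Hnf4g with 49.9.

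**Figure D1:**
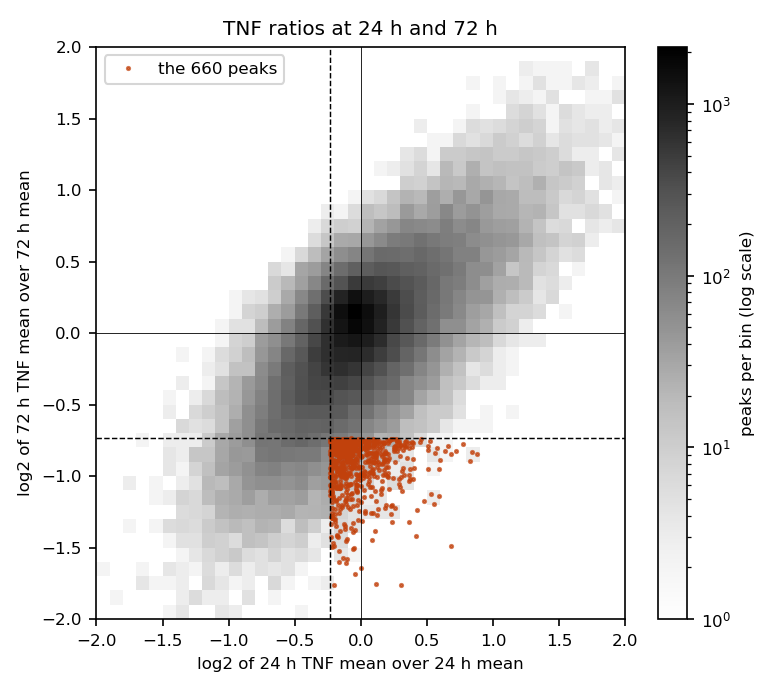
Ratio of the TNF mean to the untreated mean at 24 h (x axis) and at 72 h (y axis), both as log2, for peaks with a 72 h mean of at least 50. Grey squares count peaks on a log scale, orange points are the 660 peaks, dashed lines are the bounds of the rule, and 160 peaks lie outside the axes. The orange points fill the corner of a single grey cloud, with no gap at the bounds.

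The 660 peaks lay mostly away from genes' ends. Only 28 (4.24%) were centred no more than 1 kb from either end of a protein-coding gene, against 19.1% of the 64114 peaks with a 72 h mean of at least 50. The share was 3.96% among peaks closed at both times and 3.25% among those with a 24 h ratio between both bounds, and it was 5.47% among the 329 peaks that met the mirrored rule, with a higher mean in TNF at 72 h only. Few peaks at gene ends were thus found in all 4 sets, whether TNF lowered or raised the mean. The 64114 were taller, with a median 72 h mean of 129 against 76.0 for the 660, and the shares were not matched for height. The centre of 394 (59.7%) lay inside a protein-coding gene, and the median distance to the nearest gene end was 28.1 kb, against 15.3 kb for the 64114. The peaks had 608 different nearest genes, of which 563 had a single such peak, 41 had 2, Cacna2d3 and Immp2l had 3, Ptprt had 4 and Tns1 had 5. Within 25 kb of another of the 660 lay 33 of them (5%). The 1685 other peaks within 25 kb had a median 72 h ratio of 0.955, against 1.02 over the 64114, and 163 of them (9.67%) were at most 0.6, against 6.19%.

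For the few that lay on a promoter, the reference sequence before an annotated start can be shown. A RefSeq promoter window of GRCm38.p6 (250 bases before and 50 after an annotated start) overlapped 15 of the 660 peaks, 12 of them at a protein-coding gene. The 250 bases before the start were wholly inside the peak at 7 genes. At Dao the peak centre lies inside the gene, 3.95 kb from its nearest end, so that window is at an internal start. The Dao peak is therefore not counted among those within 1 kb of a gene end. Given here, 5′ to 3′ on the strand of the gene, are the windows of the 3 with the lowest 72 h ratios, and of Mtmr2, which held the most motif matches of the 7. Capitals mark matches, on either strand, to any of the motifs AP-1 TGANTCA, NFI TTGGCA, SOX ACAATG, TEAD CATTCC, STAT TTCNNNGAA, C/EBP TTGCNNCAA, NRF2 TGACNNNGC, LIM homeobox TAATTA and RFX GTTGCC.
Dao, chr5:114003485-114003734, plus strand: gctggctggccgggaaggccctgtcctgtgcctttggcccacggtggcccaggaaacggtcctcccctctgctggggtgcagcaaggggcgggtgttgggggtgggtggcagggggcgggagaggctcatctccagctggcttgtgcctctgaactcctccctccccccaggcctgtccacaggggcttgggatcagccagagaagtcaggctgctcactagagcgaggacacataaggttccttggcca
4930402F06Rik, chr2:35397175-35397424, minus strand: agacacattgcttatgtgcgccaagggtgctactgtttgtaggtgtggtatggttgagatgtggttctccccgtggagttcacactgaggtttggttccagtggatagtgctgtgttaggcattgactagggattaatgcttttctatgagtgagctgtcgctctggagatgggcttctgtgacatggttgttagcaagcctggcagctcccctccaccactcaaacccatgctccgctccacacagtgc
Tecta, chr9:42401691-42401940, minus strand: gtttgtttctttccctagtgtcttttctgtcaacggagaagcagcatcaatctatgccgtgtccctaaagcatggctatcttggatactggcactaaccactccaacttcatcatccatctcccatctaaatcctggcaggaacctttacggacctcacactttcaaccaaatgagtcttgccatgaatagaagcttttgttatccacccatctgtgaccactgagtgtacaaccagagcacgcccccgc
Mtmr2, chr9:13765704-13765953, plus strand: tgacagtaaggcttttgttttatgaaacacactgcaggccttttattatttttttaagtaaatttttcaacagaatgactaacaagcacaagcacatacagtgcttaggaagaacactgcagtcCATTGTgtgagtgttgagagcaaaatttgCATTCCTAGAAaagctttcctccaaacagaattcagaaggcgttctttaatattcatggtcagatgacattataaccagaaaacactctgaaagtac

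The Dao, 4930402F06Rik and Tecta windows held none of the motifs. The Mtmr2 window held SOX once, and TEAD and STAT once each in letters that overlap. Over all 32851 promoter windows cut to the same 250 bases, SOX letters were present in 10.7%, TEAD letters in 12.6% and STAT letters in 7.02%. The GC content was 66.4% at Dao, 51.6% at 4930402F06Rik, 47.2% at Tecta and 35.6% at Mtmr2. These 4 sequences differ widely in base composition and share no searched motif, and they describe a small minority of the 660, whose own sequences were not analysed here.

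The peaks were of low to middling height. Their 72 h mean had a median of 76.0 normalised reads and ranged from 50.1 to 916, with 438 under 100 and 50 of at least 200. The highest was a peak in Itpkb, a kinase of inositol trisphosphate. Each 72 h library held a median of 63 reads at a member peak. Reads in all peaks ranged from 9640256 to 39349111 per library, and NSP libraries were the deepest. By library, the median read number at the 660 peaks ran from 28 in replicate 2 of 72 h TNF to 95.5 in replicate 2 of the NSPs.

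Across the course without TNF, the median over the 660 peaks went up to 72 h and was lower again at 1 week. The rule favours a high untreated 72 h mean, so this is a description. Per library, the median normalised value over the 660 was 50.2, 45.0 and 40.5 in NSPs, and 58.1, 59.0 and 60.4 at 24 h. It was 55.7, 57.1 and 61.8 in 24 h TNF, and 81.1, 77.2 and 77.8 at 72 h. It was 42.9, 41.4 and 42.0 in 72 h TNF, and 65.2, 60.0, 63.8 and 59.0 at 1 week. The TNF-treated 72 h libraries thus lay below those of 24 h and of 1 week and within the range of the NSPs. Over all 64114 peaks, the same medians lay between 122 and 137 in every library.

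The untreated 72 h mean exceeded the 24 h mean at 550 of the 660 (83.3%), against 54.7% of the 64114, with a median fold of 1.46. It was the highest of the 4 untreated groups at 353 (53.5%), against 16.3% of the 64114, 30.0% of the peaks closed at both times and 39.3% of those with a 24 h ratio between both bounds. The rule itself favours peaks with a high 72 h mean, so these shares are a description. With TNF, the 72 h mean was below the untreated 24 h mean at 510 peaks (77.3%), against 46.3% of the 64114. It lay between the untreated 24 h and 72 h means at 150 (22.7%), against 17.1%. It was below all 4 untreated groups at 205 (31.1%), against 12.1%, and against 43.6% of the peaks closed at both times. Against NSPs the 72 h TNF mean was higher at 337 peaks (51.1%), with a median fold of 1.01. The same values over the 64114 were 50.1% and 1.00. The low 72 h TNF mean chose the peaks, so these counts are a description too. Peaks closed at both times differed in the course without TNF, with a median fold of 72 h over 24 h of 1.05. Their TNF-treated means at 24 h and 72 h had medians of 50.6 and 46.0. The bounds on the 24 h ratio favour a low untreated 24 h mean in the 660 and a high one in the peaks closed at both times. The difference between both sets is therefore a description too.

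**Figure D2:**
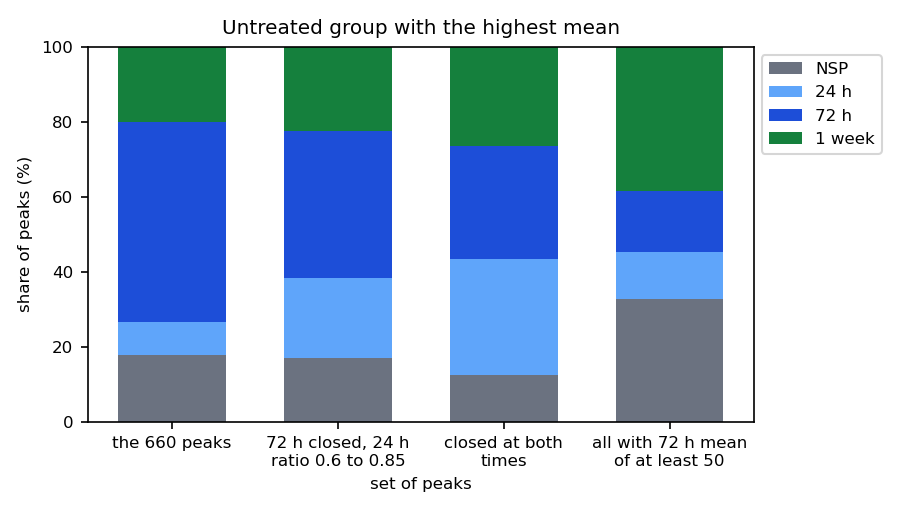
Share of peaks (y axis, percent) whose highest mean among the untreated groups was in NSPs, at 24 h, at 72 h or at 1 week, for 4 sets of peaks (x axis). For the 660 peaks the 72 h part is 53.5%, against 16.3% of all peaks with a 72 h mean of at least 50.

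Both parts of the rule held less firmly in libraries that were kept out of it. Each of the 12 libraries at 24 h and 72 h was left out in turn, the peaks were chosen anew from the others, and the left-out library was then set against the mean of the opposite group. When a 72 h or 72 h TNF library was left out, the median 72 h ratio was 0.540 to 0.544 in the libraries that chose the peaks and 0.600 to 0.646 with the left-out one. In the left-out library 40.2% to 49.8% of the peaks were past the 0.6 bound and 92.4% to 96.6% were under 1. When a 24 h library of either kind was left out, the median 24 h ratio was 0.947 to 0.969 in the libraries that chose and 0.855 to 0.901 in the left-out one, with 50.9% to 58.5% at or over the 0.85 bound. Over the 64114 peaks the median 24 h ratio was 0.974. By group means, 47.1% of the 64114 had a 72 h ratio under 1 and 6.19% one of at most 0.6. The lowering at 72 h was thus smaller in the left-out libraries than in the means, while the value at 24 h was also below that of all peaks. The opposite group's libraries had served in the choice in each case. A 72 h ratio under 1 is therefore partly built in, and these shares are a description, not a replication.

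**Figure D3:**
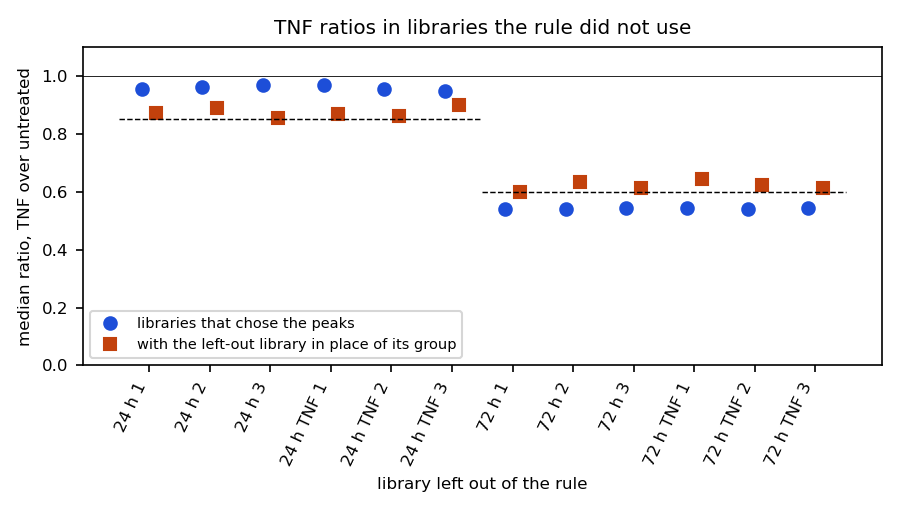
Median ratio of TNF over untreated (y axis) of the peaks chosen without 1 library, for each of the 12 libraries left out (x axis). Blue circles are the libraries that chose the peaks, orange squares put the left-out library in place of its group, and dashed lines are the bounds of 0.85 at 24 h and 0.6 at 72 h. At 72 h the squares lie at 0.600 to 0.646, and at 24 h at 0.855 to 0.901.

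For the contrasts that the rule used, counts are given beside the background as a description. A call is a Benjamini-Hochberg adjusted p under 0.05 in limma-trend, adjusted over 88919 peaks. TNF at 72 h was called lower at 5.55% of all peaks tested and at 408 of the 660. TNF at 24 h was called lower at 3.53% of all peaks and at 0 of the 660 in limma-trend, also at an unadjusted p under 0.05, and called higher at 7.06% of all and at 1 of the 660. The difference between both TNF effects, an interaction term, was called lower at 0.00112% of all peaks, which is 1 peak, and at 0 of the 660 in limma-trend. At an unadjusted p under 0.05 the interaction was lower at 401 of the 660 and at 3484 of all peaks. All 3 TNF libraries at 72 h lay below all 3 untreated ones at 15.3% of all peaks and at 605 of the 660.

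The course from NSPs to 1 week was measured in libraries that the rule did not use. Here 301 of the 660 (45.6%) were called higher at 1 week than in NSPs, against 31.3% of all 88919 peaks tested and 35% of the 64114, and 134 (20.3%) were called lower, against 31.1% and 25.2%. At the other 225 the test was not passed. The median log2 difference of 1 week minus NSPs was 0.49 over the 660 and 0.01 over all peaks. More of the 660 thus gained than lost accessibility between the start and 1 week. The floor on the untreated 72 h mean admits peaks that were low in NSPs and leaves out those lost by 72 h. Gains also outnumbered losses among the 64114, which share that floor, so part of the excess is built in. Of the peaks closed at both times, 54.6% were called higher and 16.1% lower, with a median of 0.94, and of those with a 24 h ratio between both bounds 48.3% and 20.2%, with a median of 0.58. Of the 329 peaks that met the mirrored rule, 45.0% were called higher and 24.0% lower, with a median of 0.42. More gains than losses were thus also seen where TNF raised the 72 h mean, and were not particular to the 660. All 4 libraries of 1 week lay above all 3 of NSPs at 31.3% of all peaks and at 285 of the 660, and below them at 30.7% and at 138. Replicate 1 of the NSPs stood apart at the peaks closed at both times, with a median of 63.7 against 35.8 and 34.9. At the 660 the NSP medians were more evenly spaced, with 50.2, 45.0 and 40.5. Without replicate 1 of the NSPs, 329 of the 660 were called higher and 139 lower. In the names of 10 libraries, those of 72 h, 72 h TNF and 1 week, a tag is present. The 9 names of the NSP, 24 h and 24 h TNF groups lack it. What goes with the tag and the effect of time therefore cannot be told apart here. At a given time, the comparison of TNF with no TNF lies within a tag. Setting the TNF ratio at 72 h beside that at 24 h, as the rule and the interaction do, crosses the tag. So does each step from 24 h to 72 h.

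The 301 peaks called higher at 1 week had a median of the group means of 23.3 in NSPs, 53.9 at 24 h, 53.8 in 24 h TNF, 82.5 at 72 h, 43.6 in 72 h TNF and 86.9 at 1 week. With TNF at 72 h they thus lay nearer to the 24 h level than to that of NSPs. The 134 called lower had medians of 101.5 in NSPs, 67.7 at 24 h, 68.2 in 24 h TNF, 68.1 at 72 h, 37.7 in 72 h TNF and 37.2 at 1 week. These were kept from 24 h to 72 h in untreated cells, and at 72 h with TNF they were at the level that untreated cells had at 1 week. The 225 not called had medians of 52.5, 57.2, 57.7, 73.8, 39.3 and 50.7 in the same order, and at 169 of them (75.1%) the untreated 72 h mean was the highest. All 3 classes have a 72 h ratio of at most 0.6 by the rule, so their low values with TNF at 72 h are a description. Whether fewer cells held a region open or each cell held it less open cannot be told apart in bulk samples.

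**Figure D4:**
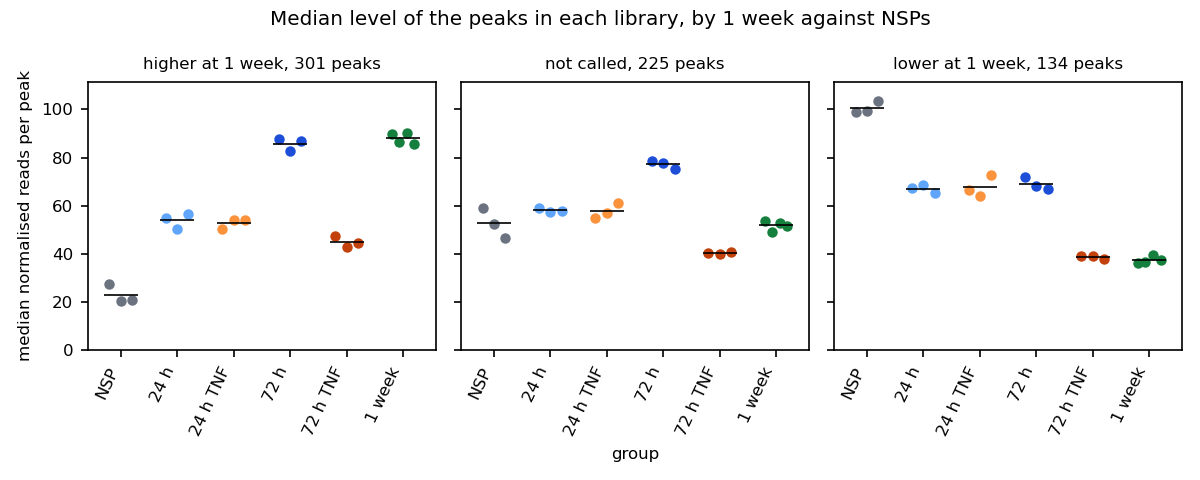
Median normalised reads per peak in each of the 19 libraries (points, y axis) by group (x axis), for the peaks called higher, not called and called lower at 1 week against NSPs. Bars are means of the library medians. At 72 h with TNF the medians lie between 37.8 and 47.4 in all 3 panels, whereas the NSP medians lie between 20.3 and 27.5 on the left and between 98.7 and 103 on the right.

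Genes that turn progenitors towards glia, a list of 25 gliogenic regulators, were nearest gene to 437 peaks with a 72 h mean of at least 50. Of these peaks 5 (1.14%) were among the 660, a share near the 1.03% over all such peaks. All 5 were called higher at 1 week than in NSPs in limma-trend, where 45.6% of the 660 and 31.3% of all peaks tested were. SOX9 is a transcription factor that astrocyte fate depends on. A peak on chromosome 11, 112935019 to 112935519, lay 147.5 kb from Sox9, its nearest gene. Its values were 5.26, 17.0 and 13.3 in NSPs, 62.6, 29.5 and 56.7 at 24 h, and 46.0, 42.0 and 46.7 in 24 h TNF. They were 249.6, 217 and 209 at 72 h, 129.6, 108 and 116 in 72 h TNF, and 171, 228, 169 and 187 at 1 week. The main gain came between 24 h and 72 h, and the TNF-treated libraries at 72 h stood above every 24 h library yet below every untreated 72 h library. The ratio of the means was 0.524 at 72 h and 0.906 at 24 h, and the log2 difference of 1 week minus NSPs was 4.01 ± 0.33 (SE, limma-trend adjusted p 5e-07).

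NPAS3, a transcription factor of the bHLH-PAS family, is active in neural progenitors and astrocytes. A peak inside Npas3 on chromosome 12, 53907192 to 53907692, had 14.6, 11.8 and 12.0 in NSPs, 30.7, 22.1 and 24.6 at 24 h and 59.2, 55.0 and 61.2 at 72 h. With TNF it had 22.1, 20.5 and 27.0 at 24 h and 25.9, 32.5 and 30.0 at 72 h, and at 1 week 40.6, 54.6, 55.0 and 49.3. TNF-treated libraries at 72 h thus overlapped the 24 h libraries, whereas untreated ones did not. Its log2 difference of 1 week minus NSPs was 1.88 ± 0.29 (SE, limma-trend adjusted p 0.0001).

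ID4 is a helix-loop-helix protein that blocks proneural factors. A peak 107.4 kb from Id4, on chromosome 13 from 48153214 to 48154145, had 46.7, 20.7 and 32.6 in NSPs, 110.4, 90.0 and 82.5 at 24 h, and 81.4, 74.3 and 97.6 in 24 h TNF. It had 135, 145 and 113 at 72 h, 90.3, 50.3 and 56.4 in 72 h TNF, and 52.9, 66.2, 81.4 and 46.1 at 1 week. Untreated cells had more at 72 h than at any other time, and NSP and 1 week libraries touched, with a log2 difference of 0.91 ± 0.31 (SE, limma-trend adjusted p 0.023). Without replicate 2 of the NSPs the adjusted p was 0.12. The other two, chosen after their values were seen, were peaks inside Nfia (chromosome 4, 98051214 to 98051714) and Nfix (chromosome 8, 84738352 to 84738852), 2 NFI factors that bind many astrocyte enhancers. The Nfia peak had a 72 h ratio of 0.569 and a log2 difference at 1 week of 1.25 ± 0.33 (SE, limma-trend adjusted p 0.0051), but its 72 h libraries (29.6, 61.0 and 66.3) overlapped those with TNF (24.1, 20.7 and 44.4). The Nfix peak had 166, 169 and 241 at 72 h and 103, 105 and 122 with TNF, with no overlap, and a log2 difference at 1 week of 1.92 ± 0.25 (SE, limma-trend adjusted p 2.8e-05).

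Of 167 peaks whose nearest gene is on the astrocyte list, 3 (1.80%) were among the 660, next to Gja1, Glul and Gjb6. Gja1 encodes connexin 43 and Gjb6 connexin 30, the gap junction proteins of astrocytes, and Glul encodes glutamine synthetase, which clears glutamate. The peak of Gja1 was far from the gene, 473 kb, on chromosome 10 from 56863459 to 56863959. It had 8.76, 14.6 and 8.64 in NSPs, 23.9, 13.3 and 25.9 at 24 h, and 28.3, 14.0 and 32.2 in 24 h TNF. It had 60.5, 64.6 and 71.4 at 72 h, 34.9, 25.1 and 37.2 in 72 h TNF, and 52.0, 39.7, 37.4 and 46.1 at 1 week. Untreated 72 h libraries were above all others, and 1 week exceeded NSPs by 1.97 ± 0.33 on the log2 scale (SE, limma-trend adjusted p 0.00019).

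The peak of Glul, 13.3 kb from the gene on chromosome 1 from 153922725 to 153923225, had 57.8, 39.1 and 25.9 in NSPs, 108, 70.8 and 103 at 24 h, and 76.0, 92.7 and 93.5 in 24 h TNF. It had 138, 105 and 139 at 72 h, 84.9, 84.2 and 55.2 in 72 h TNF, and 74.9, 104, 85.8 and 74.0 at 1 week. Values at 72 h and 24 h overlapped without TNF, and those with TNF at 72 h were near those at 1 week. One week exceeded NSPs by 1.09 ± 0.28 on the log2 scale (SE, limma-trend adjusted p 0.0042). The peak of Gjb6, 32.1 kb away (chromosome 14, 57165466 to 57165966), had 109.8, 61.2 and 37.9 in NSPs and 82.0, 68.6, 55.0 and 66.5 at 1 week, which overlapped (log2 difference 0.08 ± 0.31 SE, limma-trend adjusted p 0.83). Its 72 h libraries had 136, 82.5 and 96.9, and 66.2, 54.7 and 57.6 with TNF.

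**Figure D5:**
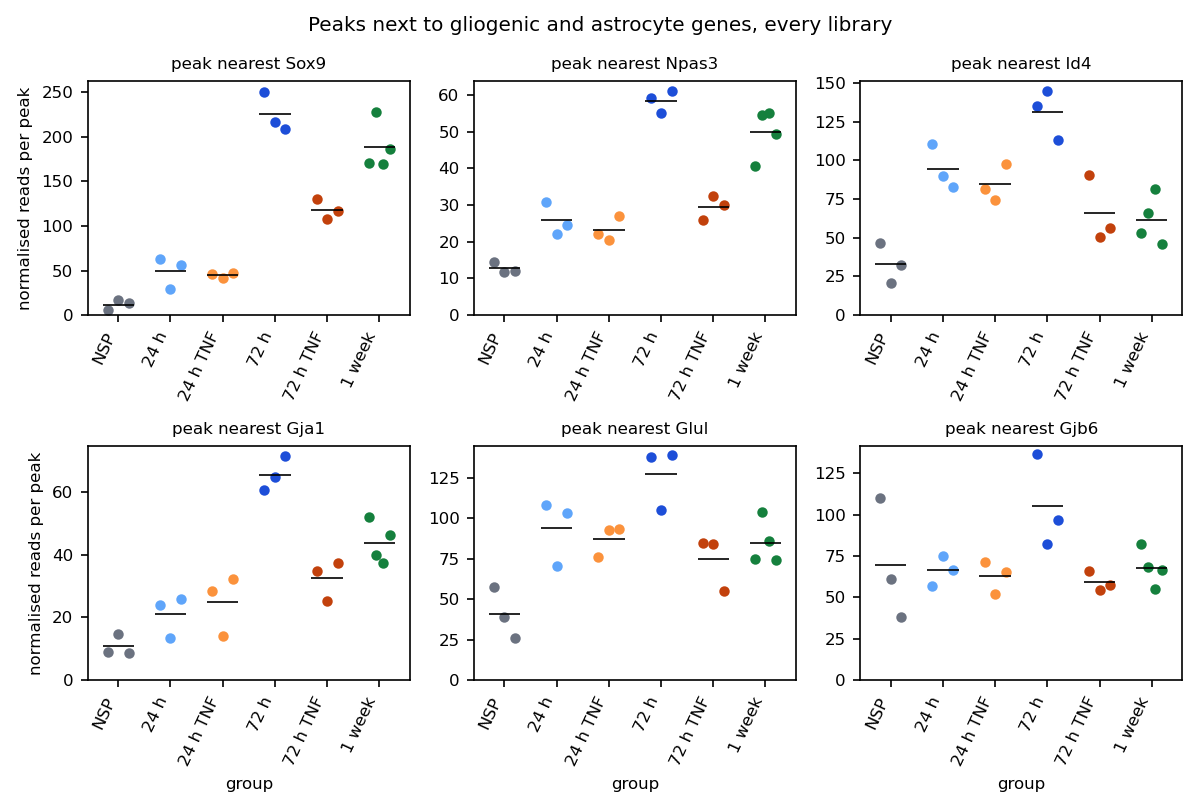
Normalised reads per peak (y axis) in every library (points) by group (x axis), with the group mean as a bar, for the peaks nearest Sox9, Npas3, Id4, Gja1, Glul and Gjb6. In each panel the 3 untreated 72 h libraries lie above the 3 libraries at 72 h with TNF, while 24 h libraries with and without TNF overlap.

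The peaks nearest Notch2 and Rbpj, 2 each, were picked out after their values were seen, and no list of Notch genes was counted. With a 72 h mean of at least 50 there were 13 peaks nearest Notch2 and 8 nearest Rbpj. Their median 72 h ratios were 1.07 and 1.11, against 1.02 over all 64114 such peaks, so most peaks of either gene were not lower with TNF. NOTCH2 is a receptor that keeps progenitors and favours glia, and RBPJ is the protein through which Notch acts on DNA. Both Notch2 peaks had lower means with TNF at 72 h, but their courses were opposite. The one 20.1 kb from the gene (chromosome 3, 97993165 to 97993665) had 63.1, 59.4 and 70.4 in NSPs and 23.8, 21.8, 26.4 and 11.8 at 1 week, a log2 difference of -1.63 ± 0.32 (SE, limma-trend adjusted p 0.00069). The one inside the gene (chromosome 3, 98039104 to 98039604) had 31.0, 27.3 and 27.9 in NSPs and 192, 215, 183 and 189.8 at 1 week, a log2 difference of 2.72 ± 0.18 (SE, limma-trend adjusted p 7.6e-08). At 72 h the first had 75.9, 57.4 and 42.1 without and 38.4, 16.3 and 20.4 with TNF, and the second 111, 112 and 129 without and 75.1, 76.9 and 54.0 with TNF. Neither set overlapped. At Rbpj both peaks were called higher at 1 week, by 2.51 ± 0.31 for the peak 125.9 kb away at chromosome 5, 53429626 to 53430126 (SE, limma-trend adjusted p 1.8e-05) and by 0.88 ± 0.35 for the peak 53.6 kb away at chromosome 5, 53501966 to 53502466 (limma-trend adjusted p 0.042). The nearer one had 60.5, 47.8 and 43.3 at 72 h and 24.1, 28.1 and 7.20 with TNF.

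Of the other lists, TGF-beta and BMP genes had 2 of 234 peaks among the 660, actin and TEAD genes 1 of 284, collagen and matrix genes 3 (1.34%), and neuronal and neurogenic genes 1 of 204. Reactive astrocyte genes had 0 of 82, NF-kB genes 0 of 89, oligodendrocyte genes 0 of 113, microglia genes 0 of 14, and endothelial and mural genes 0 of 47. Over all 64114 peaks with that 72 h mean the share was 1.03%, which is about 1 peak in a list of 89. The median 72 h ratio over all listed peaks was 1.23 for NF-kB and 1.18 for reactive astrocyte genes, the 2 highest of the 11 lists, against 0.947 for astrocyte and 0.993 for gliogenic genes.

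The peak in Tgfb2, a TGF-beta ligand gene (chromosome 1, 186665389 to 186665889), had 57.9, 41.9 and 82.8 at 72 h and 41.1, 50.3 and 13.2 with TNF, which overlapped, and was not called at 1 week (log2 difference -0.80 ± 0.33 SE, limma-trend adjusted p 0.053). With the replicate block, where replicate 4 of 1 week has no partner and does not bear on the difference, it was called lower (-1.06, limma-trend adjusted p 0.017), as it was without replicate 4 of 1 week (limma-trend adjusted p 0.013). The peak in Tgfbr3, a TGF-beta co-receptor, was not called either (adjusted p 0.91). Vinculin, encoded by Vcl, ties actin to adhesion sites. The peak inside the gene (chromosome 14, 20969027 to 20969527) had 100.4, 96.9 and 119 at 72 h and 68.8, 35.5 and 54.0 with TNF, with overlapping libraries of NSPs and 1 week (log2 difference 0.20 ± 0.23 SE, limma-trend adjusted p 0.47). In Col4a2, a basement membrane collagen, 1 of 2 peaks (chromosome 8, 11411606 to 11412106) fell from NSPs to 1 week, by a log2 difference of -1.83 ± 0.31 (SE, limma-trend adjusted p 0.00022). Its values were 81.2, 127 and 131 in NSPs and 30.9, 24.2, 50.6 and 22.5 at 1 week. The peak 238.9 kb from Stmn2, which encodes a neuronal tubulin-binding protein, was highest at 24 h with 232, 227 and 266, and had 93.9, 122 and 133 at 72 h and 84.0, 54.7 and 57.6 with TNF.

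The 8 peaks with the lowest 72 h ratios lay between 0.295 and 0.335. They were in or nearest Ctbp1, Nav1, Lama2, Dao, Samd5, 4931429L15Rik, Ptprt and Mgp. The lowest values are partly so by the choice of extremes. Of the 8, 5 were called higher at 1 week in limma-trend and the other 3 were not called, beside 45.6% called higher of the 660 and 31.3% of all peaks tested. NAV1 is a microtubule protein of growing neurites. The peak inside Nav1, chromosome 1 from 135483898 to 135484398, had 11.7, 51.8 and 41.9 in NSPs, 110.4, 92.9 and 83.8 at 24 h, and 117, 106 and 133 in 24 h TNF. It had 91.4, 88.5 and 77.8 at 72 h, 32.2, 16.3 and 27.6 in 72 h TNF, and 272, 252, 213 and 235 at 1 week. The 24 h libraries with and without TNF overlapped, while the 72 h TNF libraries lay below every other library of differentiating cells. At 1 week the peak exceeded NSPs by 2.99 ± 0.38 on the log2 scale (SE, limma-trend adjusted p 2.3e-05).

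A different course was seen in Samd5 and Ptprt, which were almost closed in NSPs. The peak inside Samd5 on chromosome 10, 9438964 to 9439464, had 8.18, 2.36 and 8.64 in NSPs, 30.7, 28.0 and 32.0 at 24 h, 70.8, 73.0 and 94.3 at 72 h, and 118, 146, 108 and 95.4 at 1 week. With TNF it had 33.6, 38.8 and 18.7 at 24 h and 27.7, 28.1 and 20.4 at 72 h. Untreated cells gained at each step, while 72 h TNF libraries stayed at or under the untreated 24 h level. Ptprt encodes a receptor tyrosine phosphatase. Of its 4 peaks, the one with the lowest ratio, 0.330, lies inside the gene (chromosome 2, 161591096 to 161591596) and had 60.5, 65.8 and 47.2 at 72 h, 14.3, 17.7 and 25.2 with TNF, and 101, 111, 128 and 124.4 at 1 week. In NSPs that peak had 7.59, 3.77 and 0.664, which are 13, 8 and 1 reads. Its log2 difference of 4.84 ± 0.46 (SE, limma-trend adjusted p 2e-06) therefore rests on few NSP reads.

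CTBP1 is a corepressor of transcription. The peak 8.21 kb from Ctbp1 (chromosome 5, 33239260 to 33239760) had the lowest ratio of all, with 60.5, 52.6 and 77.8 at 72 h and 17.9, 19.2 and 19.2 with TNF, the latter nearly equal to one another. The peak in Lama2, which encodes a laminin chain (chromosome 10, 27475536 to 27476036), had 52.8, 62.2 and 82.8 at 72 h and 23.2, 22.2 and 13.2 with TNF. In NSPs it had 36.8, 40.5 and 35.9, so TNF-treated libraries were under the NSPs as well. Mgp encodes matrix Gla protein, which prevents calcification. The peak 12.2 kb from it (chromosome 6, 136887808 to 136888308) was nearly flat in untreated cells, with means of 52.1 in NSPs, 50.4 at 24 h, 53.6 at 72 h and 61.2 at 1 week, and 18.0 ± 6.94 in 72 h TNF (SD, n = 3). The 72 h TNF libraries, with 25.9, 14.8 and 13.2, lay below every other library. The Dao peak, at a gene for an enzyme that breaks down D-serine, had 38.6, 44.3 and 94.3 at 72 h and 26.8, 10.3 and 18.0 with TNF, so 1 high untreated library raised the mean behind its ratio of 0.311.

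Among the peaks called higher at 1 week with no overlap of libraries, the 6 with the smallest p-values were nearest Tpx2, Prkce, Tex2, Sema6d, St3gal1 and Rln3. TPX2 is a factor of the mitotic spindle, and a peak (chromosome 2, 152842214 to 152842714) lay 5.5 kb outside its gene. It had 2.92, 1.41 and 0.664 in NSPs (5, 3 and 1 reads), 51.2, 48.7 and 38.2 at 24 h, and 54.8, 63.6 and 11.4 in 24 h TNF. It had 138, 166 and 203 at 72 h, 93.9, 88.7 and 106 in 72 h TNF, and 553, 529, 612 and 594 at 1 week. This was the steepest gain of the 6, with a fitted log2 difference of 7.83 ± 0.28 (SE, limma-trend adjusted p 7.6e-10) that depends on the pseudocount because the NSPs had so few reads. The peak 307.4 kb from St3gal1, a sialyltransferase gene (chromosome 15, 67484139 to 67484639), had 21.6, 11.8 and 14.0 in NSPs, 249.6, 279 and 254 at 72 h, 169.9, 154 and 140.4 in 72 h TNF, and 274, 274, 345 and 337 at 1 week. Most of its gain came between 24 h, where it had 47.8, 36.9 and 60.4, and 72 h, and with TNF it reached an intermediate value.

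Sema6d, which encodes a guidance molecule, held a peak (chromosome 2, 124172692 to 124173192) that went from 7.59, 9.89 and 7.31 in NSPs to 212, 178, 235 and 184 at 1 week. At 72 h it had 106, 127 and 116, and 69.7, 66.5 and 58.8 with TNF, all above the 24 h libraries. The peak 8.97 kb from Rln3, the relaxin-3 gene (chromosome 8, 84053703 to 84054203), had 165, 184 and 189.9 at 72 h and 90.3, 111 and 109 with TNF. Prkce encodes protein kinase C epsilon, and the peak inside it (chromosome 17, 86509756 to 86510256) did not follow this order. It had 141, 123.9 and 185 at 24 h, 59.2, 51.4 and 68.8 at 72 h and 257, 260.3, 259.7 and 225 at 1 week, with 41.1, 26.6 and 32.4 in 72 h TNF. It was thus lower at 72 h than at 24 h and at 1 week, and lowest with TNF among the differentiating cells. In NSPs the peak had 20.4, 16.0 and 15.9, below every later library.

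The 6 peaks with the smallest p-values among those called lower were nearest Gata6, Selenop, Eya2, Itpr3, Rnf144a and Gse1. Their log2 differences lay between -1.72 and -2.58. SELENOP is the plasma carrier of selenium, and the peak 32.5 kb from its gene (chromosome 15, 3237974 to 3238474) had 207, 363 and 373 in NSPs, 158, 139 and 108 at 24 h, and 126, 136 and 143 in 24 h TNF. It had 125, 105 and 148 at 72 h, 76.9, 63.6 and 75.6 in 72 h TNF, and 45.0, 52.2, 46.2 and 61.1 at 1 week. It stayed near one level from 24 h to 72 h without TNF, while with TNF at 72 h it lay between the untreated 72 h and the 1 week libraries (log2 difference at 1 week -2.56 ± 0.23 SE, limma-trend adjusted p 1e-06). EYA2 is a transcription coactivator. The peak inside its gene (chromosome 2, 165603711 to 165604211) had 158, 312 and 326 in NSPs, 93.9, 75.4 and 115 at 72 h, 55.4, 62.1 and 52.8 in 72 h TNF, and 36.1, 46.0, 41.8 and 41.8 at 1 week.

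The peak in Rnf144a, a ubiquitin ligase gene (chromosome 12, 26386873 to 26387373), had 177, 149.8 and 173 in NSPs, 77.2, 46.7 and 80.3 at 72 h, 27.7, 35.5 and 34.8 in 72 h TNF, and 25.6, 26.5, 41.8 and 20.4 at 1 week. Here the TNF-treated 72 h libraries lay inside the range of 1 week. The peak 75.5 kb from Gata6, a GATA transcription factor gene, had 65.3, 108 and 90.0 in 72 h TNF and 97.9, 82.6, 88.0 and 71.8 at 1 week, which overlapped too. That 8.28 kb from Itpr3, an IP3 receptor gene (chromosome 17, 27048477 to 27048977), had 55.4, 66.5 and 113 against 92.6, 84.2, 61.6 and 89.0. Inside Gse1 (chromosome 8, 120460384 to 120460884) the values were 102, 81.3 and 85.2 against 122, 79.5, 88.0 and 105. At these 4 peaks the 72 h libraries with TNF and the 1 week libraries without it were not separated.

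Of the 28 peaks within 1 kb of a gene end, the 8 with the lowest 72 h ratios had ratios of 0.354 to 0.478 and were at Sdc3, Rufy1, Ncmap, Nudt18, Dchs1, Pak6, Fen1 with Tmem258, and 4930402F06Rik. Of these too, 5 were called higher at 1 week in limma-trend and the other 3 were not called, beside the same 45.6% and 31.3%. SDC3 is a heparan sulfate proteoglycan of neural cells. Its peak, 0.719 kb from a gene end (chromosome 4, 130825349 to 130825849), had 24.0, 33.9 and 25.9 in NSPs, 93.9, 70.6 and 72.7 at 72 h, 17.0, 37.0 and 30.0 with TNF, and 22.0, 42.1, 44.0 and 39.7 at 1 week. It was high in untreated cells at 72 h alone. PAK6 is a serine/threonine kinase. The peak 0.16 kb from its gene end (chromosome 2, 118697930 to 118698430) had 216, 176 and 241 at 72 h and 109, 81.3 and 98.4 with TNF, and was called higher at 1 week by 0.94 ± 0.22 (log2, SE, limma-trend adjusted p 0.0028). The promoter peak of 4930402F06Rik, whose window is printed above, had 81.8, 88.6 and 83.1 in NSPs, 192, 166 and 182 at 72 h, 70.6, 84.2 and 103 with TNF, and 134, 123, 176 and 131 at 1 week. That of Tecta, a tectorin gene, had 54.0, 40.7 and 57.4 at 72 h, 17.9, 37.0 and 19.2 with TNF, and 56.1, 130.0 and 136 in NSPs against 23.8, 1.56, 26.4 and 23.6 at 1 week. The promoter peak of Mtmr2, a lipid phosphatase gene, had 108, 126 and 119.8 at 72 h and 44.7, 102 and 58.8 with TNF, so that 1 TNF-treated library nearly reached the untreated ones.

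Tns1 encodes tensin, a link between integrins and actin, and had the most peaks among the 660, picked out after the count was seen. The 5 lay over 277.3 kb and had 72 h ratios of 0.478 to 0.582 and 24 h ratios of 0.933 to 1.23. Their courses were mixed, with 1 called higher at 1 week, 3 called lower and 1 not called. The median 72 h ratio of all 53 peaks nearest Tns1 was 0.847, so the 5 were the low end of many peaks with a ratio under 1.

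Markers of other cell types were read at peaks within 1 kb of a marker gene's end. Summed over 21 astrocyte peaks, the libraries ranged from 7985 to 9063 in NSPs, 6667 to 7457 at 24 h, 6241 to 6515 in 24 h TNF, 6601 to 7002 at 72 h, 6259 to 6839 in 72 h TNF and 7787 to 8143 at 1 week. These peaks, at either end of a gene, were thus open in NSPs as well, and their sums in differentiating cells did not exceed the range of NSPs. Over 27 neuronal and neurogenic peaks the sums were 4822 to 5300 at 72 h and 5486 to 5820 in 72 h TNF. Over 5 microglia peaks they were 619 to 742 and 696 to 769, over 11 oligodendrocyte peaks 2463 to 2554 and 2522 to 2800, and over 3 endothelial and mural peaks 360.1 to 438 and 359 to 415. The neuronal sums did not overlap between both 72 h groups, and their part in the values of the 660 peaks was not tested.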

How the data were processed

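ATAC-seq was analysed in 19 libraries. According to the methods and processing notes of the study, the authors checked reads with FastQC, trimmed them with Trim Galore, aligned them with Bowtie2 (mm10), used SAMtools to drop mitochondrial reads, called peaks with MACS2 and dropped blacklisted regions. Versions, the handling of duplicates, the shift of cuts and the scaling were not given in the sources used here. The deposited table holds a signal, the reads per peak divided by a factor per library: all values (100% in each library, tolerance 0.01 reads) were whole multiples of 1 read, and no value was under 1 read. Odd numbers made up 61.8% of the values of 2 to 20 reads, and a read may not be an independent fragment. Of the 660 peaks, 658 were 500 bp long, and positions are as in the table.

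The members, the gene lists and the tests were chosen with earlier results of these data known. The planned test assumed raw counts or, where values were normalised, limma-trend, which was used. Values were taken as log2(value + 1), which understates the changes of low peaks. Of the peaks, 88919 passed edgeR's filterByExpr (minimum count 10), all 660 among them. The test of 1 week against NSPs used these 7 libraries alone, was two-sided and was adjusted by Benjamini-Hochberg. TNF contrasts were fitted to all 19 libraries. The test was tried on data drawn with known differences, 100 of 2-fold and 100 of 4-fold. It recovered 29 of the 2-fold and 99 of the 4-fold ones, with 4 false calls. A peak that was not called may thus still have changed. Gene positions and promoter windows came from RefSeq tables of GRCm38.p6. A nearest gene is protein-coding, 0 kb away where the peak centre lies inside it, and need not be regulated by the peak. No exon, intron or untranslated region was assigned, and the planned GC content and motifs of the peaks were not run. Replicate numbers of NSPs and 1 week were not used to pair the libraries in the main test. The correlations of same-numbered deviations were 0.021, 0.042 and 0.024, and those of differently numbered ones lay between -0.024 and -0.0019. These small values do not settle whether the numbers mark pairs, and the replicate block was run as an alternative.

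Named peaks followed a rule: the 8 with the lowest 72 h ratio; the 6 higher and 6 lower at 1 week with the smallest p among those whose libraries did not overlap; up to 8 within 1 kb of a gene end with the lowest 72 h ratio; up to 3 per gene list; and those at the bounds, of which 1 is not reported here. Alternatives covered the bounds, scaling, filter, pseudocount, tool, block and left-out libraries. R 4.3.3, limma 3.58.1, edgeR 4.0.16, DESeq2 1.42.0 and Python 3.11.15 were used. Positions are printed as in the deposited table, which does not state whether a start counts from 0 or 1.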

Additional observations from a re-analysis of the deposited data

Results flagged for a closer look

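In the 4 libraries of 1 week, 46 values were searched for a library whose gap to the nearest of the others took up most of the group's range (Dixon's 95% bound), which chance alone marks in about 1 of 20 groups, and 3 were found. At the Lama2 peak, replicate 1 had 73.2 normalised reads, while the others had 30.4 to 33.0. At the Prkce peak, replicate 4 had 225, while the others had 257 to 260.3. At the first Col4a2 peak (start 11362043), replicate 3 had 26.4, while the others had 60.0 to 62.3. Without replicate 1, the Lama2 difference of 1 week minus NSPs changed sign, from 0.05 to -0.25 on the log2 scale, and it was not called in either case.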

How the results depend on the processing

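The number of peaks depended on the bounds. It was 182 with a 72 h ratio of at most 0.5 and 2017 with at most 0.7, 232 with a 24 h ratio of at least 1 and 1240 with at least 0.75, and 222 with a 72 h mean of at least 100 and 1123 with at least 25. Scaling by total reads gave 1155 peaks, which included 659 of the 660, and moved the median 72 h ratio of the 64114 peaks from 1.02 to 0.964; TMM gave 788, which included 652. Group medians in place of means gave 892, which included 427, and leaving out a library gave 662 to 892, which included 504 to 582. Added after the data were seen, the count was 650 without chromosomes X and Y and 605 where the 72 h libraries with and without TNF did not overlap. The 301 higher and 134 lower calls at 1 week became 287 and 121 with the replicate block, 292 and 141 in edgeR, 294 and 142 in DESeq2, and 289 and 146 with total-read scaling, and leaving out a library gave 268 to 329 and 113 to 139. Among replicates 1 to 3 of NSPs and 1 week, each library correlated best with its own number, a hint from the data only. Over 42 named peaks and 18 settings, 731 of 756 values kept their direction and side of the threshold. The sign of 1 week minus NSPs (log2) changed only at 4 peaks that were not called: at Lama2, to -0.024 with total-read scaling, and between -0.25 and 0.16 when a library was left out; at Gjb6, to -0.023 in edgeR and -0.039 in DESeq2, and between -0.28 and 0.47 on leaving out; at Dao, from -0.061 to 0.84 when a library was left out; and at Tgfbr3, to 0.30 with loess, and between -0.13 and 0.11 on leaving out. The Id4 call was lost without NSP replicate 2, 1 week replicate 2 or 1 week replicate 3, and the Clrn1 call in edgeR (adjusted p 0.051) and without NSP replicate 2 (limma-trend adjusted p 0.053) or 3 (0.052). Calls were gained at Tgfb2 with the replicate block (limma-trend adjusted p 0.017), total-read scaling (0.041), a pseudocount of 5 (0.048) and without 1 week replicate 4 (0.013), at Dchs1 with all 19 libraries (0.013), loess (0.036) and without NSP replicate 1 (0.017), and at Stmn2 with all 19 libraries (0.047) and without NSP replicate 1 (0.00038). The cause was not tested. Depth limits single peaks: at 63 reads per 72 h library, the counting error alone is large beside the distance of a ratio from its bound.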

Other observations

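TNF also raised the means of peaks at 72 h only, with 329 peaks meeting the mirrored rule, whose floor of 50 is on the mean with TNF. In 148 of these (45.0%) 1 week was called higher than NSPs, against 35% of the 64114 peaks with a 72 h mean of at least 50 and 31.3% of all tested, and in 79 (24.0%) lower, against 25.2% and 31.1%, by limma-trend at an adjusted p under 0.05. Of their highest untreated means, 2.43% were at 72 h, against 16.3% of the 64114, and 46.8% at 1 week, against 38.4%. The mirrored rule favours a low untreated 72 h mean, so these shares are a description.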
